A study of Mus musculus with 4 samples.

Results

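The 9 genes described here encode ubiquitin ligases and their helpers, most of them studied in T cell tolerance: Cblb, Cbl, Itch, Nedd4, Ndfip1, Rnf128, Fbxo32, Peli1 and Tnfaip3. They were measured among 18193 genes on an expression array, and their members were every probe set that the platform annotation assigns to these symbols, 28 probe sets in all. The arrays measured Treg cells from the spleen of C57BL/6 mice; these are the CD4 T cells that carry Foxp3 and hold other immune cells in check. There were 2 arrays labelled Foxo1/3-deficient and 2 labelled wild-type, in 2 numbered pairs that each hold 1 array of each label. The titles, which set the groups, name both Foxo1 and Foxo3, but the genotype entry beside them gives only Foxo1. How the genes were deleted, in which cells, at what age and whether animals were pooled is not stated in the labels, nor whether arrays came from separate animals, so every p measures only the spread between these arrays.

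A ubiquitin ligase attaches the small protein ubiquitin to a chosen target, which marks it for destruction, for removal from the cell surface or for a change in signalling. In T cells several such ligases raise the threshold for activation: loss of Cblb or Itch in mice leads to autoimmune or inflammatory disease, and Rnf128 (GRAIL) was described as a gene of anergy, the unresponsive state of T cells. FoxO transcription factors, which the PI3K and AKT pathway keeps out of the nucleus, are known to drive Fbxo32 in wasting muscle.

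The labels were first set against the targeted genes and cell markers. Foxo1 was higher on the arrays labelled Foxo1/3-deficient on the 3 of its 4 probe sets that were bright enough to test, with log2 differences between 1.97 and 2.21 (limma adjusted p from 0.00839 to 0.0280). Foxo3 was lower on its 2 tested probe sets, by -0.70 and -0.77, and neither passed (limma adjusted p = 0.342 and 0.288). The Foxo1 signal therefore goes against the label, where the probe sets lie relative to the deleted part is not given, and each direction below is that of the arrays as labelled. The Treg markers Foxp3, Ctla4, Il2ra, Ikzf2, Cd4, Cd3e and Cd3g were all measured, with a summed signal of 46175 and 48497 on the labelled-deficient arrays and 45709 and 50975 on the wild-type arrays. Il2ra read 4416 and 3962 on the labelled-deficient arrays, against 2449 and 3584 on the wild-type arrays. Ctla4 read 7377 and 8287 on the labelled-deficient arrays, against 6516 and 6960 on the wild-type arrays. Neither passed (limma adjusted p = 0.567 and 0.839), and groups overlapped on the other Treg markers. Summed signals of 5 macrophage and monocyte markers were 9845 and 7414 on the labelled-deficient arrays against 7134 and 4675 on the wild-type arrays, so the sums did not overlap. Csf1r made up most of that sum, and without it the sums were 3170 and 2249 on the labelled-deficient arrays against 2385 and 1688 on the wild-type arrays, which overlap. Of the 5 markers, Csf1r and Adgre1 were higher on both labelled-deficient arrays than on both wild-type arrays, Lyz2, Cd14 and Cd68 overlapped, and 0 passed by limma (Adgre1 did with the pair as a block, adjusted p = 0.0152). Ncr1, a defining natural killer cell gene, lay under the brightness filter. The B cell marker Ms4a1 read 1611 and 998 on the labelled-deficient arrays, against 1081 and 423 on the wild-type arrays. Cd22 went the other way, with 438 and 451 on the labelled-deficient arrays against 857 and 672 on the wild-type arrays. Groups overlapped on the B cell markers Cd79a and Cd79b and on the CD8 T cell markers Cd8a and Cd8b1. None of these passed by limma, and Ms4a1 did with the block (adjusted p = 0.0456).

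The signals that stood apart were those of Fbxo32 and Peli1, both higher on the labelled-deficient arrays, while Tnfaip3 was lower on its bright probe set. Cblb, Cbl, Itch, Nedd4, Ndfip1 and Rnf128 differed by between -0.53 and 0.52 on the log2 scale over all their probe sets. Differences are given as log2(signal + 17), labelled-deficient minus wild-type, where 17 was added to damp dim values, so folds of dim probe sets are understated. By limma, at an adjusted p under 0.05 over all 27022 probe sets tested, 0 of the 28 members were called higher and 0 lower. The background was 0.633% of all tested probe sets called higher and 0.529% called lower. At an unadjusted p under 0.05, 8 members were higher and 1 lower, against 5.58% and 5.05% of all probe sets. Those 8 were 4 probe sets of Peli1, 3 of Fbxo32 and 1 of Cbl, and the lower one was Tnfaip3. With the pair number as a block, 5 of 28 members passed as higher (background 2.52%) and 0 as lower (2.61%): 3 of Peli1 and 2 of Fbxo32. That fit leaves 1 residual degree of freedom. The members' median difference was 0.25, against 0.04 over all tested probe sets. Probe sets of 1 gene read the same transcripts and are not separate evidence.

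**Figure D1:**
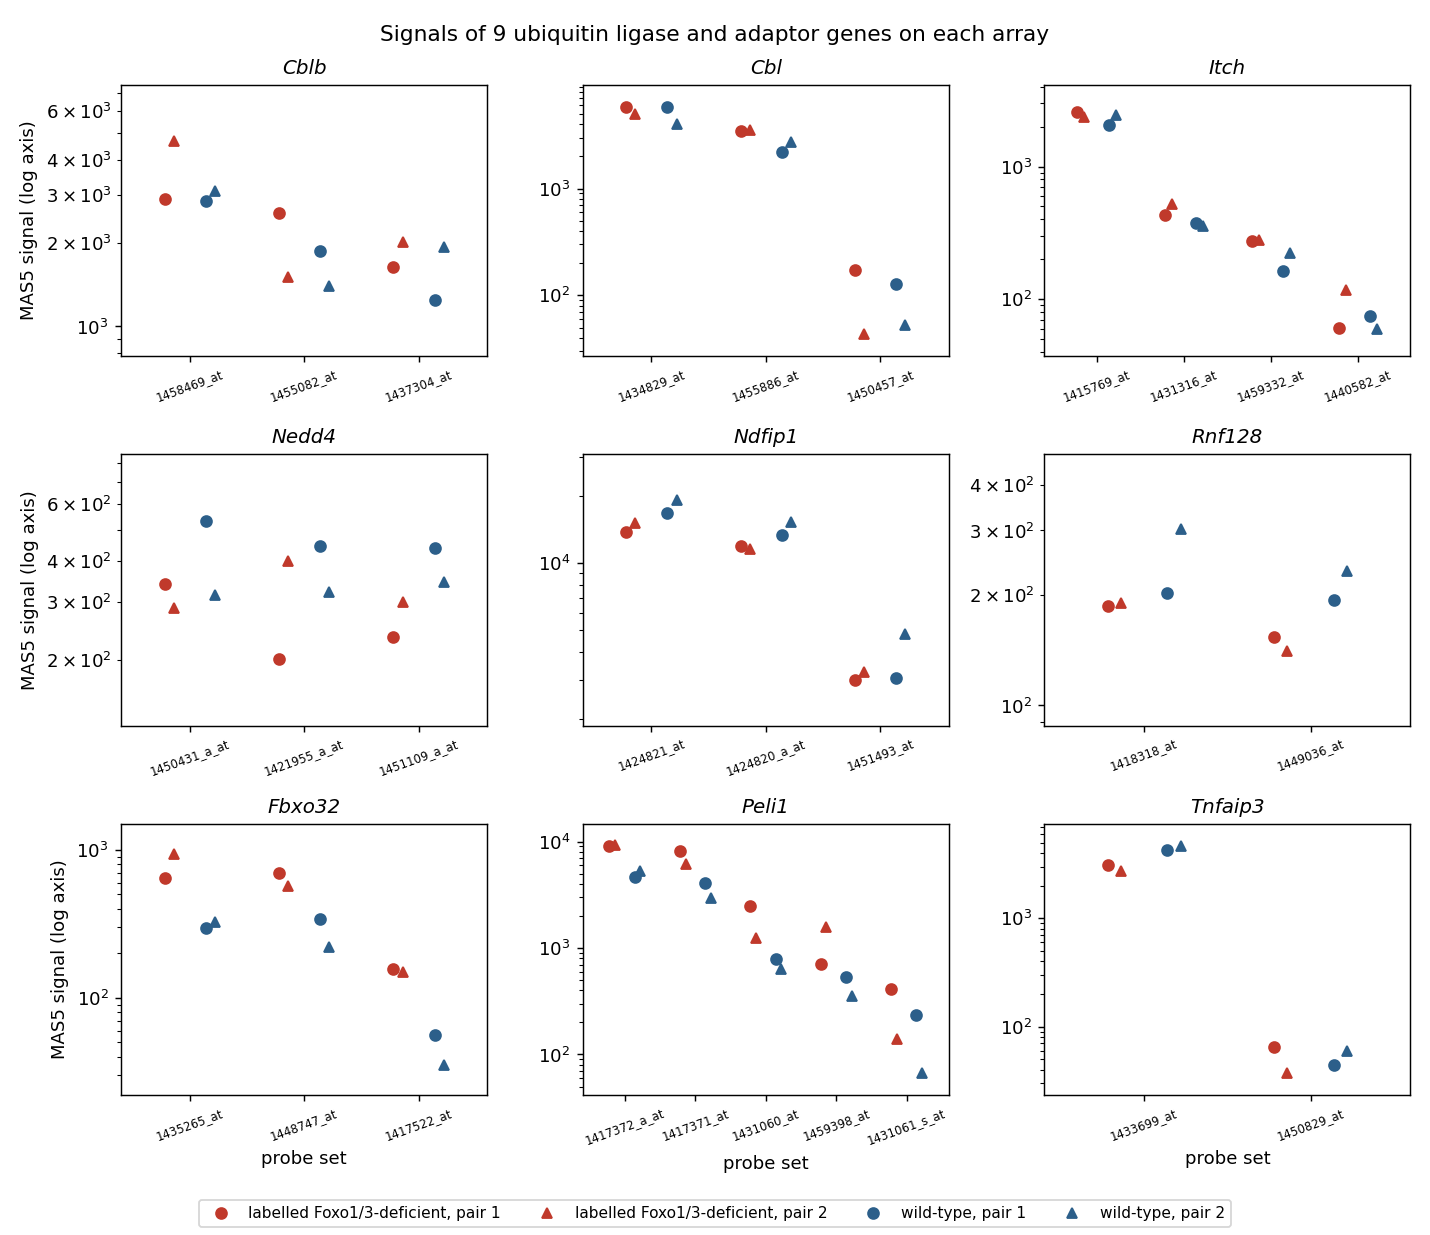
MAS5 signal (log axis) of each of the 28 probe sets, 1 panel per gene, with each array as a point: labelled Foxo1/3-deficient arrays in red, wild-type arrays in blue, circles for pair 1 and triangles for pair 2. Red points lie above blue ones on all 3 Fbxo32 probe sets and on 4 of the 5 Peli1 probe sets, and below them on both Rnf128 probe sets and the bright Tnfaip3 probe set. They also lie above on Cbl 1455886_at and on Itch 1431316_at and 1459332_at. On Ndfip1 1424821_at and 1424820_a_at and on Nedd4 1451109_a_at they lie below.

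Proximal promoters are shown for Peli1 and Tnfaip3, the members whose bright probe sets differed most in each direction among genes with a promoter window. The windows are RefSeq sequences of GRCm38.p6 that run from 250 bases before to 50 bases after the transcription start. Peli1 lies at chr11:21091074-21091373 on the plus strand, and Tnfaip3 at chr10:19015361-19015660 on the minus strand. Capitals mark matches to the NF-kappaB consensus.
Peli1: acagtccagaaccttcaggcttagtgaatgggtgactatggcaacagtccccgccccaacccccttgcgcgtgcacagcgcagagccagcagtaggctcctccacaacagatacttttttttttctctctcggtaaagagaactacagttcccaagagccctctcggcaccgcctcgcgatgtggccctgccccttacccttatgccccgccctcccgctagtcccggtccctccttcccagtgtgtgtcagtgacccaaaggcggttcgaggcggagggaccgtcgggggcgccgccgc
Tnfaip3: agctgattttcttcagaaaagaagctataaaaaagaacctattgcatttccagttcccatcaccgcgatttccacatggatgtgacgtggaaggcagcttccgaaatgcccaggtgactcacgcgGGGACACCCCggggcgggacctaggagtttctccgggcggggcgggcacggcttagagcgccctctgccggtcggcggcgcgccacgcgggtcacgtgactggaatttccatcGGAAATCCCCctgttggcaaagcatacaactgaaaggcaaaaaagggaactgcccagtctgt

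Windows were matched for 6 of the 9 genes, 8 windows in all. Fbxo32, Itch and Ndfip1 had no window, so their promoters were not searched. The FoxO consensus GTAAACA, searched on both strands, was in 0 of those 8 windows and in 3.65% of all 32851 promoter windows. The NF-kappaB consensus, on either strand, was in 1 of the 8 windows, that of Tnfaip3 printed above, and in 4.51% of all windows. It has 2 matches there, which start 125 and 12 bases before the transcription start and do not overlap. A match is a run of letters and not a measured binding site, and no match says only that these letters are not in these windows.

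Fbxo32 (atrogin-1) is the F-box subunit that brings targets to an SCF ubiquitin ligase. Its probe set 1435265_at read 648 and 940 on the labelled-deficient arrays of pairs 1 and 2, against 294 and 327 on the wild-type arrays. Probe set 1448747_at read 699 and 573 on the labelled-deficient arrays, against 340 and 222 on the wild-type arrays. The dimmest, 1417522_at, read 157 and 149 on the labelled-deficient arrays, against 56.2 and 35.4 on the wild-type arrays. On every one of these probe sets both labelled-deficient arrays lay above both wild-type arrays. Ratios within the pairs ran from 2.05 to 4.21. These were the 3 members at least 2-fold higher in both pairs, where 2.35% of all tested probe sets were, and 0 members were at least 2-fold lower in both (1.94%).

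The log2 difference of Fbxo32 was 1.28 ± 0.30 (SE) on 1435265_at, a 2.44-fold change, with a limma adjusted p of 0.105. It was 1.15 ± 0.32 on 1448747_at (adjusted p = 0.168) and 1.46 ± 0.36 on 1417522_at (adjusted p = 0.129). The first and second passed once the pair was a block (adjusted p = 0.0121 and 0.0241) and the third did not (0.0577). Averaging a gene's probe sets before the fit, an alternative chosen after seeing the data, gave 1.30 ± 0.23 for Fbxo32 and an adjusted p of 0.04 over 12115 genes (1.12% called higher). With 1 probe set per gene, 1435265_at did not pass (limma adjusted p = 0.0668). None of the 3 probe sets passed without the brightness filter (limma adjusted p from 0.219 to 0.336) or without the intensity trend (0.133 to 0.239). Leaving out 1 array kept the difference of the 3 probe sets between 0.86 and 1.70. Of the macrophage markers given above, Adgre1 was higher on the labelled-deficient arrays by ratios of 2.23 and 1.93 within the pairs and Csf1r by 1.41 and 1.73, while Lyz2 had ratios of 0.819 and 1.003; their part in this result was not tested. In bulk RNA such as this, fewer cells of a type and less RNA per cell cannot be told apart.

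Peli1 is a RING-like ligase of the Pellino family that was first studied in Toll-like and interleukin-1 receptor signalling and that restrains T cell activation in mice. Its brightest probe set, 1417372_a_at, read 9163 and 9242 on the labelled-deficient arrays, against 4675 and 5313 on the wild-type arrays. Probe set 1417371_at read 8126 and 6148 on the labelled-deficient arrays, against 4123 and 2943 on the wild-type arrays. On 1431060_at the signals were 2507 and 1232 on the labelled-deficient arrays, against 789 and 629 on the wild-type arrays. In each of these 3 the groups did not overlap. Probe set 1459398_at, with 710 and 1585 on the labelled-deficient arrays against 533 and 352 on the wild-type arrays, was also separated, but its ratio was 1.33 in pair 1 and 4.50 in pair 2. The dimmest, 1431061_s_at, read 410 and 141 on the labelled-deficient arrays, against 236 and 66.9 on the wild-type arrays. There the groups overlapped, because pair 2 was lower than pair 1 under both labels, while the ratio within each pair was 1.73 and 2.11.

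All 10 within-pair ratios of Peli1 were above 1, as they were for 8.30% of the 277 genes with 5 tested probe sets. The log2 difference on 1417372_a_at was 0.88 ± 0.19 (SE), a 1.84-fold change, with a limma adjusted p of 0.0819 over all probe sets. The same probe set passed when 1 probe set stood for each gene (adjusted p = 0.0486 over 12115 genes, 1.21% called higher) and under quantile normalization (0.0457). It did not pass without the brightness filter (limma adjusted p = 0.219) or without the intensity trend (0.292). Nor did it pass with the filter at the 60th percentile (0.0705) or with a pseudocount of 1 (0.0874). With the pair as a block it passed (0.0119), as did 1417371_at (0.00552) and 1431060_at (0.00733), but 1459398_at (0.0705) and 1431061_s_at (0.207) did not. Without the block, 1417371_at had a difference of 1.02 ± 0.25 (adjusted p = 0.120), 1431060_at of 1.30 ± 0.35 (0.167) and 1459398_at of 1.26 ± 0.41 (0.259). Leaving out wild-type replicate 1 brought 1417371_at past the threshold (0.0365), and leaving out labelled-deficient replicate 2 did so for 1431060_at (0.0458). Leaving out labelled-deficient replicate 1 gave adjusted p values of 0.477 on 1417371_at, 0.641 on 1431060_at and 0.313 on 1417372_a_at. Over the 4 omissions the difference ran from 0.79 to 0.97 on 1417372_a_at, from 0.78 to 1.26 on 1417371_at, from 0.79 to 1.81 on 1431060_at and from 0.69 to 1.83 on 1459398_at. On 1431061_s_at it was 0.83 ± 0.61 with all arrays but 0.0353 without wild-type replicate 2, 0.12 without labelled-deficient replicate 1 and 1.63 without wild-type replicate 1. The mean of the 5 probe sets differed by 1.06 ± 0.25 and did not pass (adjusted p = 0.0892), though it did with the block (0.000246). Of the macrophage markers given above, Adgre1 and Csf1r were higher on both labelled-deficient arrays, while groups overlapped on Lyz2, Cd14 and Cd68. Their part in the Peli1 result was not tested either.

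**Figure D2:**
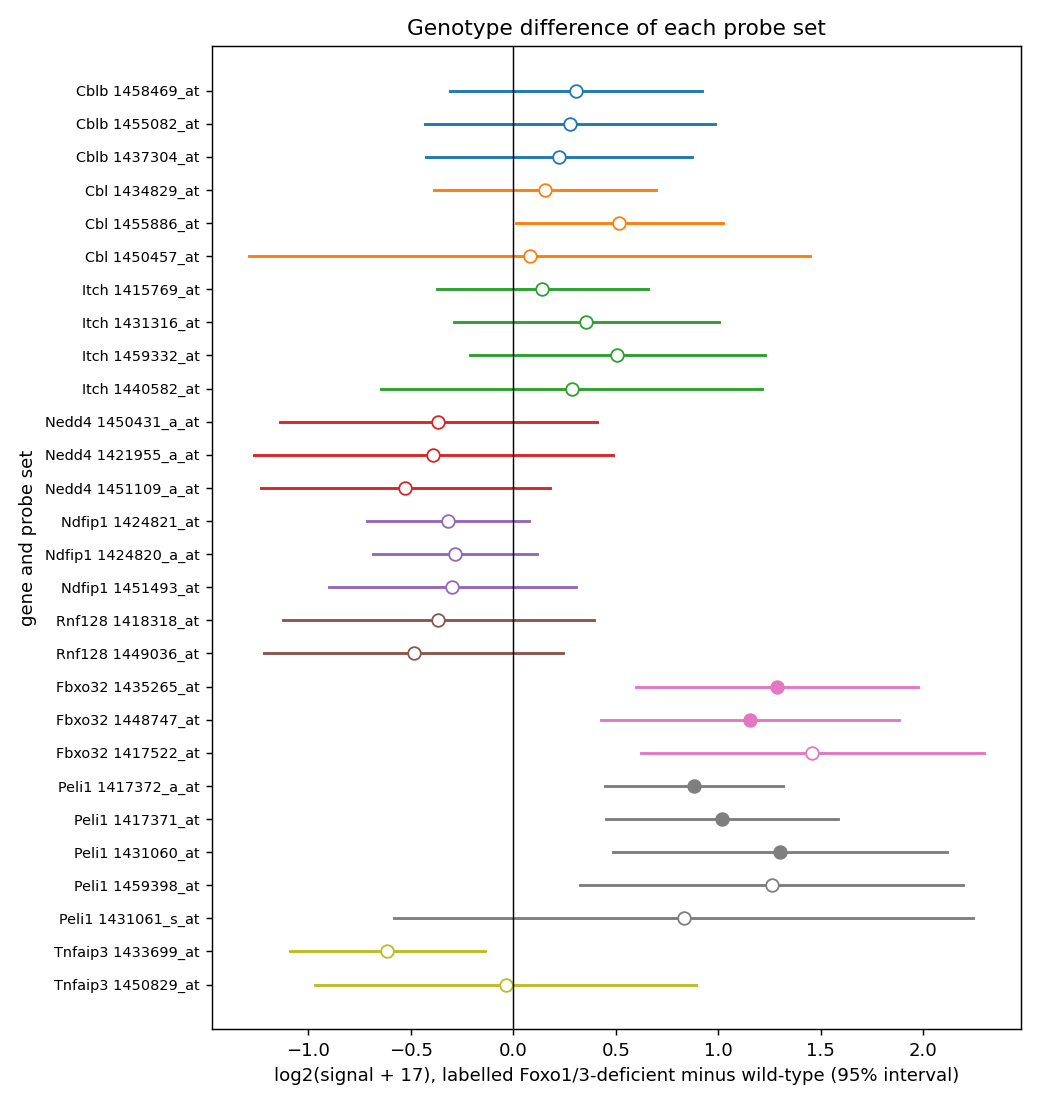
Genotype difference of each probe set on the log2(signal + 17) scale, labelled Foxo1/3-deficient minus wild-type, with lines for the 95% interval of the limma fit and 1 colour per gene. Filled points passed the 0.05 threshold once the pair entered as a block, and open points did not. The Fbxo32 intervals and those of 4 Peli1 probe sets lie above 0, that of the bright Tnfaip3 probe set lies below 0, and the others include 0 except 1 of Cbl.

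Tnfaip3 (A20) is both a deubiquitinase and a ligase that shuts down NF-kappaB signalling, and its gene is itself switched on by NF-kappaB. Its bright probe set, 1433699_at, read 3087 and 2765 on the labelled-deficient arrays, against 4257 and 4715 on the wild-type arrays. Both labelled-deficient arrays lay below both wild-type arrays. The difference was -0.61 ± 0.21 (SE), with a 95% interval of -1.09 to -0.14 before adjustment for multiple tests, and it did not pass (limma adjusted p = 0.288, or 0.0708 with the block). The other probe set, 1450829_at, was dim and disagreed between pairs, with 64.9 and 37.4 on the labelled-deficient arrays against 44.6 and 59.3 on the wild-type arrays. Its difference was -0.04 ± 0.40.

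The NF-kappaB response genes read beside Tnfaip3 lay lower more often than higher. This list was chosen with earlier results of these data known, so its counts are not a test of the list. Of 14 tested, 0 passed by limma in either direction and 4 passed as lower with the pair as a block (background 2.61%). The median log2 difference was -0.27. On 7 of the 14, both labelled-deficient arrays lay below both wild-type arrays, and on 2 above, where all tested probe sets gave 17.5% and 20.9%. Bcl3, an atypical inhibitor protein of the family, read 1195 and 697 on the labelled-deficient arrays, against 3036 and 1798 on the wild-type arrays, a difference of -1.34 ± 0.35 (adjusted p = 0.147, or 0.00215 with the block). Icam1, an adhesion molecule, read 1735 and 1528 on the labelled-deficient arrays, against 3748 and 3249 on the wild-type arrays. It differed by -1.09 ± 0.22 (adjusted p = 0.0690, 0.00468 with the block and 0.0423 with 1 probe set per gene). Icam1 did not pass without the brightness filter or without the intensity trend. The other two called with the block were Nfkb2, the p100 precursor gene (-1.03 ± 0.28), and Nfkbie, an inhibitor gene (-0.86 ± 0.26), both named here after their values were seen. Among 15 partners of A20 and deubiquitinases, a list that holds Tnfaip3 itself, 0 passed with or without the block and the median was -0.13. Tnip1, an A20-binding protein, read 5683 and 5510 on the labelled-deficient arrays, against 4767 and 4103 on the wild-type arrays (0.34 ± 0.20, adjusted p = 0.677).

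Cblb and Cbl are RING ligases of 1 family that act on the T cell receptor and on CD28 signalling. Cblb probe set 1458469_at read 2879 and 4668 on the labelled-deficient arrays, against 2832 and 3101 on the wild-type arrays. Probe set 1455082_at read 2571 and 1506 on the labelled-deficient arrays, against 1874 and 1404 on the wild-type arrays. On 1437304_at the signals were 1646 and 2015 on the labelled-deficient arrays, against 1249 and 1945 on the wild-type arrays. The groups overlapped on all 3 Cblb probe sets, although each ratio within a pair was above 1 (1.02 to 1.51), as for 11.4% of genes with 3 tested probe sets. Differences ran from 0.22 to 0.31 with adjusted p values from 0.840 to 0.909, and the 95% intervals together spanned -0.43 to 0.99. Leaving out 1 array turned the sign of each (to -0.04, -0.11 and -0.09).

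Cbl probe set 1455886_at read 3475 and 3520 on the labelled-deficient arrays, against 2196 and 2707 on the wild-type arrays. It was the Cbl probe set on which the groups did not overlap, with a difference of 0.52 ± 0.22 (SE) and an adjusted p of 0.451 (0.134 with the block). The brightest, 1434829_at, read 5837 and 4949 on the labelled-deficient arrays, against 5744 and 4056 on the wild-type arrays, and overlapped (0.15 ± 0.23). The dim 1450457_at read 173 and 43.0 on the labelled-deficient arrays, against 129 and 53.0 on the wild-type arrays. That probe set differed more between the pairs than between the labels, as 9 of the 28 members did. Of 9 tested genes of the CBL family and its partners, 0 passed and 1 passed as higher with the block: Cd2ap, an adaptor that binds CBL proteins, with 2381 and 2730 on the labelled-deficient arrays against 1349 and 1402 on the wild-type arrays (0.88 ± 0.23, adjusted p = 0.138, or 0.0159 with the block). Grb2, another adaptor, stood at -0.50 ± 0.22 (adjusted p = 0.479), and the list's median was 0.10. The blocked fit called 2.52% of all tested probe sets higher.

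**Figure D3:**
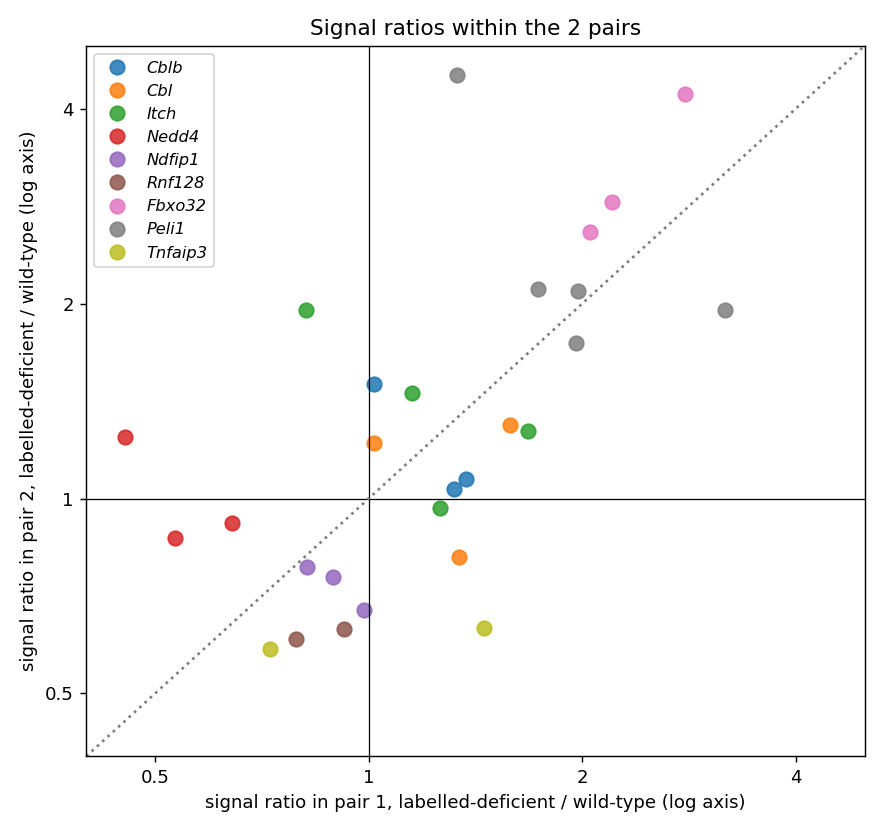
Signal ratio of the labelled Foxo1/3-deficient array to the wild-type array in pair 1 (horizontal, log axis) and pair 2 (vertical, log axis), 1 point per probe set and 1 colour per gene; the dotted line marks equal ratios. Fbxo32, Peli1 and Cblb lie in the upper right with all ratios above 1, those of Cblb from 1.02 to 1.51. Ndfip1 and Rnf128 lie in the lower left with all ratios below 1, and probe sets of Cbl, Itch, Nedd4 and Tnfaip3 also fall where the pairs disagree.

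Itch and Nedd4 are HECT ligases of the NEDD4 family, and Ndfip1 is the membrane adaptor that recruits and activates them. Itch probe set 1415769_at read 2571 and 2364 on the labelled-deficient arrays, against 2042 and 2440 on the wild-type arrays. Groups overlapped there and on the dim 1440582_at (61.1 and 117 on the labelled-deficient arrays, against 74.9 and 59.7 on the wild-type arrays). They were separated on 1431316_at, with 435 and 521 on the labelled-deficient arrays against 378 and 358 on the wild-type arrays. They were also separated on 1459332_at, with 276 and 282 on the labelled-deficient arrays against 164 and 222 on the wild-type arrays. Over the 4 probe sets the differences ran from 0.14 to 0.51, with adjusted p values from 0.702 to 0.936.

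Nedd4 had differences below 0, from -0.37 to -0.53. Probe set 1451109_a_at, with 235 and 300 on the labelled-deficient arrays against 440 and 346 on the wild-type arrays, was the one on which groups did not overlap (adjusted p = 0.672). On 1450431_a_at the signals were 340 and 289 on the labelled-deficient arrays, against 530 and 315 on the wild-type arrays. On 1421955_a_at they were 202 and 401 on the labelled-deficient arrays, against 446 and 322 on the wild-type arrays, so pair 2 went the other way with a ratio of 1.24.

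Ndfip1 gave small differences that were close to each other across its probe sets. The brightest, 1424821_at, read 13812 and 15121 on the labelled-deficient arrays, against 16850 and 19270 on the wild-type arrays. Probe set 1424820_a_at read 11939 and 11599 on the labelled-deficient arrays, against 13393 and 15318 on the wild-type arrays. Both were separated, while 1451493_at overlapped, with 2997 and 3250 on the labelled-deficient arrays against 3046 and 4834 on the wild-type arrays. All 6 ratios were below 1 (0.672 to 0.984), which 9.82% of genes with 3 tested probe sets showed. Differences of -0.28 to -0.32 had adjusted p values from 0.625 to 0.842, and the interval on 1424821_at ran from -0.71 to 0.08.

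The list of other NEDD4 family ligases and adaptors had a median difference of 0.06 over 10 tested. Of these, 0 passed and 2 passed as higher with the block (background 2.52%). The list held Nedd8, which encodes a ubiquitin-like protein outside that family, and without Nedd8 the median of the 9 others was 0.12. Arrdc3, an arrestin-domain adaptor that binds NEDD4-family ligases, read 933 and 1493 on the labelled-deficient arrays, against 300.4 and 416 on the wild-type arrays. Its difference was 1.69 ± 0.32 (SE), with an adjusted p of 0.0583, of 0.0390 with 1 probe set per gene and of 0.00174 with the block. It did not pass without the brightness filter (limma adjusted p = 0.173) or without the intensity trend. Nedd4l, the closest relative of Nedd4, read 672 and 622 on the labelled-deficient arrays, against 334 and 329 on the wild-type arrays (0.93 ± 0.27, adjusted p = 0.202, or 0.0492 with the block). Both were separated in the direction opposite to Nedd4, and the difference between the genes was not tested.

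Rnf128 is a membrane-bound RING ligase. Its probe set 1418318_at read 187 and 190 on the labelled-deficient arrays, against 203 and 303 on the wild-type arrays. Probe set 1449036_at read 153 and 141 on the labelled-deficient arrays, against 194 and 233 on the wild-type arrays. Both probe sets were separated and all 4 ratios were below 1 (0.606 to 0.924), as for 16.8% of genes with 2 tested probe sets. Differences of -0.37 ± 0.33 and -0.49 ± 0.32 had adjusted p values of 0.847 and 0.730. Counting all genes, 10 member probe sets had both labelled-deficient arrays above both wild-type arrays and 6 below (background 20.9% and 17.5%), and 12 overlapped.

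Anergy programme genes, the group with which Cblb, Itch and Rnf128 are usually discussed, held both calls among the lists in the fit with all arrays and probe sets and no block. Among the 16 tested, 2 were called higher and 0 lower (background 0.633% and 0.529%), and the median difference was 0.21. With the block, 4 were called higher and 0 lower (background 2.52% and 2.61%). On 7 of the 16, both labelled-deficient arrays lay above both wild-type arrays, and on 2 below. All tested probe sets gave 20.9% and 17.5%. Nt5e, which encodes the adenosine-producing enzyme CD73, read 2948 and 2398 on the labelled-deficient arrays, against 768 and 734 on the wild-type arrays. Its difference was 1.80 ± 0.24 (limma adjusted p = 0.0156). Nrp1, a surface receptor of Treg cells, read 6932 and 6277 on the labelled-deficient arrays, against 1864 and 2733 on the wild-type arrays (1.54 ± 0.24, adjusted p = 0.0306). Neither passed without labelled-deficient replicate 1 (adjusted p = 0.0691 for Nt5e and 0.0907 for Nrp1), and Nrp1 missed without labelled-deficient replicate 2 (0.0523). The other 2 called with the block, named after their values were seen, were Dgka and Izumo1r. Dgka, a diacylglycerol kinase, differed by 1.18 ± 0.26 (limma adjusted p = 0.0908). Izumo1r, which encodes folate receptor 4, differed by 1.10 ± 0.22 (limma adjusted p = 0.0598, or 0.0368 with 1 probe set per gene). Neither Dgka nor Izumo1r passed without the brightness filter or without the intensity trend.

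Proteins reported as substrates of these ligases were read at the transcript level. Of 28 tested, 0 were called and 2 passed as higher with the block (background 2.52%), with a median of -0.09. Smad7, an inhibitor of TGF-beta signalling, read 2226 and 1247 on the labelled-deficient arrays, against 672 and 544 on the wild-type arrays. Its difference was 1.44 ± 0.32 (limma adjusted p = 0.0961, or 0.00351 with the block). Smad7 did not pass without the brightness filter or without the intensity trend. Cd28, the costimulatory receptor gene, read 7360 and 10829 on the labelled-deficient arrays, against 4322 and 4449 on the wild-type arrays (1.02 ± 0.23, adjusted p = 0.0961, or 0.00946 with the block).

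Other parts of the ubiquitin machinery held 0 calls in the same unblocked fit of all arrays. The blocked fit called 2.52% of all tested probe sets higher and 2.61% lower. Of 29 other ligases studied in T cells, 1 passed as lower with the block: Dtx1, a ligase of the Notch pathway, with 7314 and 6253 on the labelled-deficient arrays against 12016 and 9531 on the wild-type arrays (-0.66 ± 0.20, adjusted p = 0.232, or 0.0431 with the block). Traf2, a TNF receptor adaptor, stood at -0.71 ± 0.25 (adjusted p = 0.322), and the list's median was 0.02. Of 16 E1 and E2 enzymes, which charge and carry ubiquitin, 1 passed as higher with the block. It was Ube2h, with 8121 and 5601 on the labelled-deficient arrays against 3976 and 2541 on the wild-type arrays. Its difference was 1.08 ± 0.28 (limma adjusted p = 0.148, or 0.00410 with the block). Ube2h did not pass without the brightness filter or without the intensity trend. Ube2d2a stood at 0.39 ± 0.17 (adjusted p = 0.484), and the median was 0.04.

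Among 9 tested genes that accompany Fbxo32 in muscle atrophy or proteolysis, 0 passed with or without the block, and the median was 0.17. Fbxo31, another F-box gene, read 684 and 641 on the labelled-deficient arrays, against 381 and 308 on the wild-type arrays (0.92 ± 0.28, adjusted p = 0.224, or 0.0517 with the block). Fbxo30 went the other way, with 108 and 120 on the labelled-deficient arrays against 203 and 178 on the wild-type arrays (-0.66 ± 0.32, adjusted p = 0.554).

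**Figure D4:**
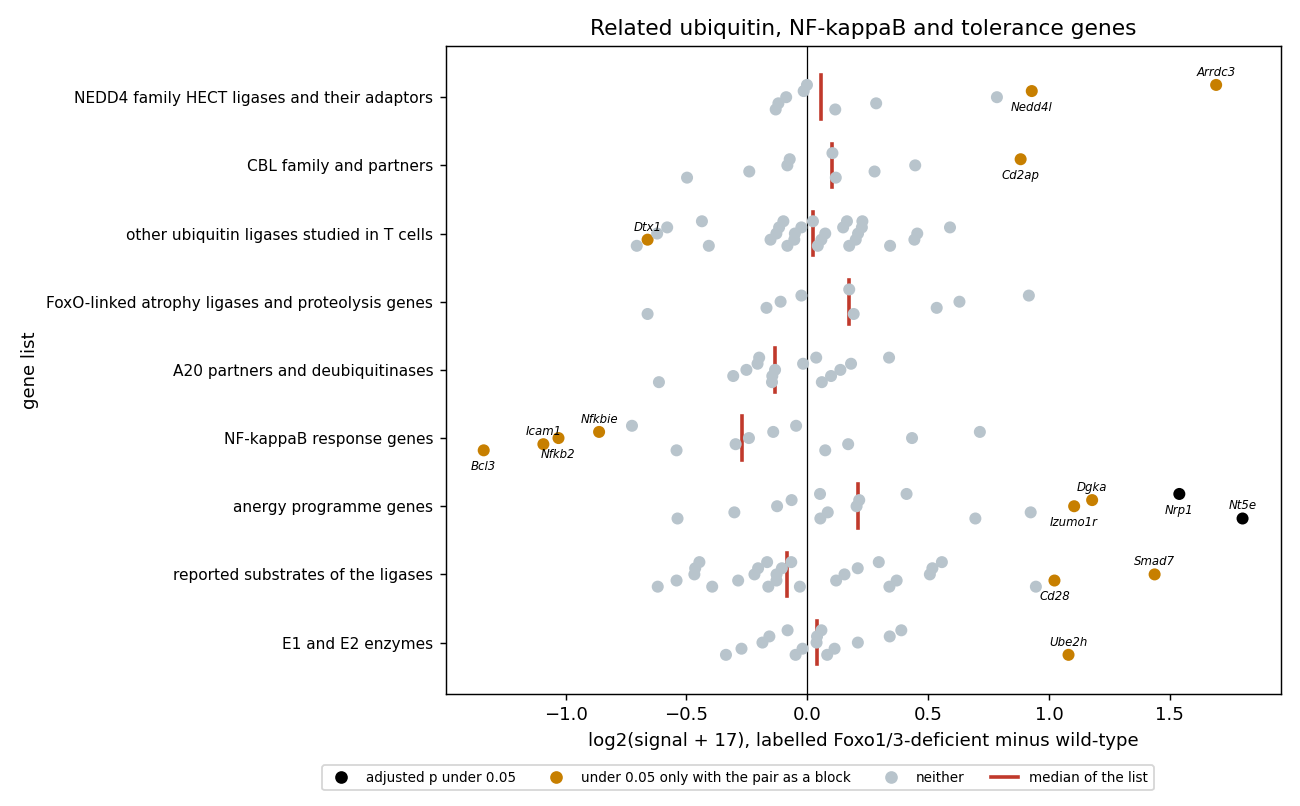
Genotype difference on the log2(signal + 17) scale, labelled Foxo1/3-deficient minus wild-type, for each tested gene of 9 related lists, 1 point per gene, with the list's median as a red line. Black points (Nt5e and Nrp1) had an adjusted p under 0.05, orange points did only in the blocked fit, and grey points in neither; points are shifted vertically to separate them.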

How the data were processed

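The authors deposited 1 linear intensity per probe set and array; the submitters' processing notes name MAS5, with no version, settings or build. The 2% trimmed mean was 500.003 on each of the 4 arrays, and the values were used without rescaling. The number of arrays limits precision, and detection calls were not used here.

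Of 45101 probe sets, 64 controls were left out, and genes were named from the platform annotation, updated by gene ID to RefSeq symbols of GRCm38.p6. Signals were tested as log2(signal + 17), 17 being the rounded lower quartile of all values, and probe sets whose mean fell in the lowest 40% (signals below roughly 40.5) were left out. All 28 members were kept. The genotype test was two-sided, by lmFit and eBayes (intensity trend) of limma 3.58.1 under R 4.3.3, adjusted by Benjamini-Hochberg over 27022 probe sets at a threshold of 0.05. With 2 arrays a group, the smallest exact p is 0.333, and the p values here rest on limma's shared variance model.

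The titles call the number a pair, which is where the pairing comes from; deviations of same-numbered arrays from their group means correlated at 0.282 across probe sets. The block on the pair was an alternative, as were other pseudocounts, filters, normalization, gene-level summaries and leaving out each array.

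Besides the members, 9 lists of 168 related genes were read, 143 of them tested, each gene by its probe set with the highest mean. The background shares beside the lists run over all tested probe sets, dim ones included, so the 2 are not like for like. Named genes were every member, Foxo1, Foxo3 and, per list, those past the threshold or otherwise at most 2 with the largest difference. The members and lists were chosen with earlier results of these data known.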

Additional observations from a re-analysis of the deposited data

How the results depend on the processing

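Among the members, the count of 0 higher calls became 5 with the replicate block, 1 with 1 probe set per gene, 1 under quantile normalization and 1 with the mean of a gene's probe sets, and ran from 0 to 1 when 1 array was left out. The count of lower calls was 0 under each of these. Over all probe sets, the 171 higher and 143 lower calls became 682 and 705 with the pair as a block, 38 and 29 with no brightness filter and 47 and 51 without the intensity trend. When 1 array was left out they ran from 110 to 368 and from 98 to 187, with 368 higher calls without wild-type replicate 1, 110 without labelled-deficient replicate 1 and 113 without labelled-deficient replicate 2. Over the related lists, 2 higher and 0 lower calls became 10 and 5 with the block, 4 and 1 with 1 probe set per gene, and 6 and 1 with the mean of a gene's probe sets. The higher calls there were 0 without the filter and 0 without the trend (Nt5e adjusted p = 0.0567 and 0.0705, Nrp1 0.115 and 0.127), and ran from 1 to 4 when 1 array was left out. The gene-level fits held fewer tests and the unfiltered fit held more, and the cause of each of these changes was not tested.

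Signs turned only when 1 array was left out, among the alternatives run, and on 9 probe sets that passed in no fit. Leave-one-out log2 differences ran from -0.0417 to 0.65 on Cblb 1458469_at, from -0.11 to 0.66 on 1455082_at and from -0.0939 to 0.54 on 1437304_at. They ran from -0.10 to 0.40 on Cbl 1434829_at and from -0.75 to 0.91 on 1450457_at, from -0.10 to 0.67 on Itch 1440582_at, and from -0.85 to 0.0758 on Nedd4 1421955_a_at. On Ndfip1 1451493_at the range was -0.63 to 0.0346, and on Tnfaip3 1450829_at -0.33 to 0.26. Probe sets of Fbxo32, Peli1 and Rnf128 did not change sign in the fits that tested them, but Peli1 1431061_s_at ran from 0.0353 to 1.63 when 1 array was left out.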
